A study of Mus musculus with 157 samples.

Results

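Lymphoid-primed multipotent progenitors (LMPP) were compared with multipotent progenitors (MPP), 2 neighbouring early stages of mouse blood formation. The 8 libraries were chosen by their labels, of 157 samples in the series. For LMPP they were 2 libraries of input RNA and 2 of RNA pulled down by an antibody to N6-methyladenosine (m6A), called IP below, and MPP had 2 of each kind. All 8 are labelled wild type and untreated. The sorting gates, the ages and sexes of the animals, and whether replicates came from separate animals are not given in the labels used here. P-values therefore measure the spread between libraries, which may be technical.

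Multipotent progenitors have left the stem cell state and can still form all blood lineages. In the usual scheme, the lymphoid-primed cells among them carry the receptor tyrosine kinase Flt3 at a high level, begin to transcribe lymphoid genes such as Dntt and Il7r, and lose megakaryocyte and erythroid potential while they keep granulocyte and monocyte potential. The common lymphoid progenitor (CLP) follows them on the lymphoid side. m6A is a common internal modification of messenger RNA that is written by the Mettl3 and Mettl14 complex, removed by Fto and Alkbh5, and read by proteins of the YTH and Igf2bp families.

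The 2 input libraries of LMPP held 12545264 and 12791814 reads, and those of MPP 19189897 and 17160605. The IP libraries held 17520515 and 14076873 in LMPP and 19845425 and 17975225 in MPP. Replicates of LMPP resembled each other less than replicates of MPP. On the log2 scale the correlation between replicates was 0.916 in LMPP and 0.958 in MPP for the input, and 0.781 in LMPP and 0.96 in MPP for the IP. The second IP library of LMPP stood apart, with 14812 genes detected against 17965 in the first one, and against 20527 and 19093 in MPP.

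Reads on neutrophil markers and on immunoglobulin, Y-linked and globin genes differed between the labels. The 10 neutrophil markers took 13070 and 4952 of every 1000000 reads (RPM) in the LMPP inputs, against 157.2 and 73.37 in the MPP inputs. The libraries labelled Neutrophil held 110200 and 113400, and those labelled Monocyte held 262000 and 255900. All immunoglobulin genes together took 11140 and 5535 RPM in LMPP and 30070 and 48040 in MPP, so these ran the other way. Y-linked genes took 43.28 and 98.89 RPM in LMPP against 5.941 and 8.158 in MPP. Globin genes took 114.3 and 161 against 52.27 and 24.13. In each of these 4 groups of genes, the LMPP and MPP inputs did not overlap, and neither did the IP libraries. Reads of these 4 groups therefore moved with the progenitor label in these libraries, and the design cannot tell them apart from it.

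**Figure D1:**
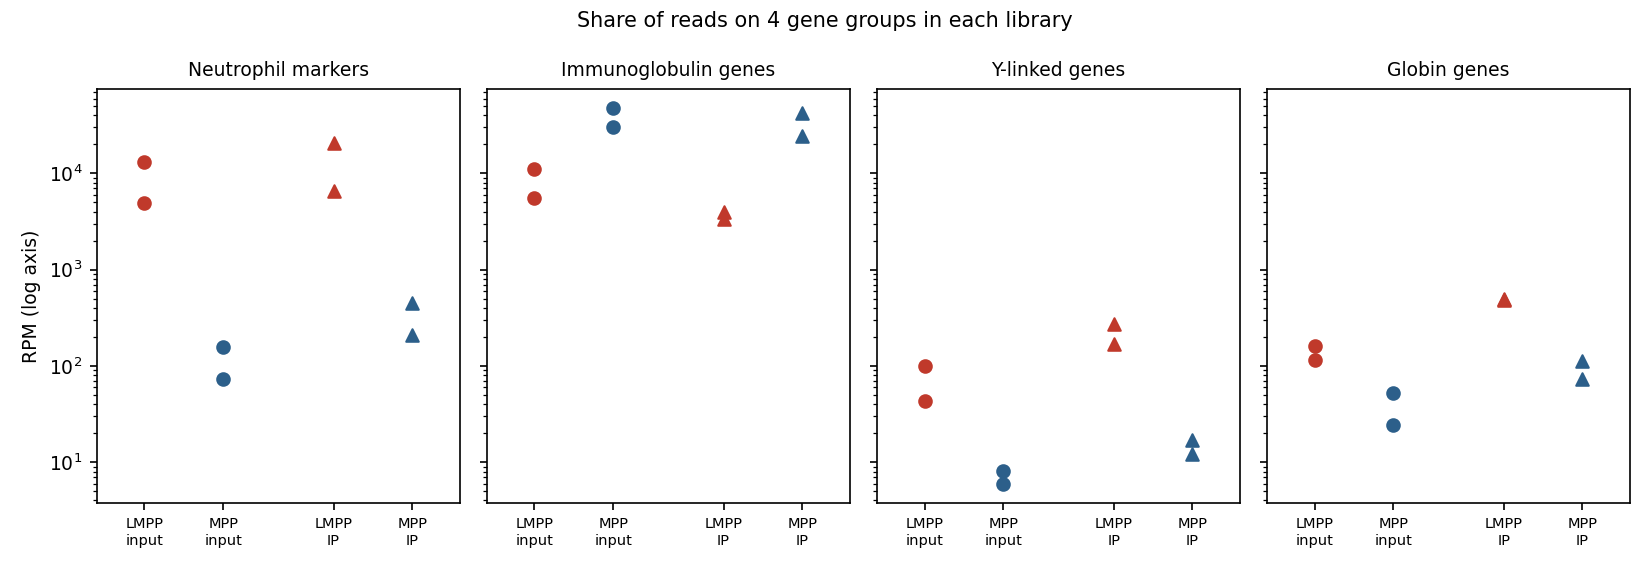
Reads per 1000000 reads of the library (RPM, log axis) on 10 neutrophil markers, immunoglobulin genes, Y-linked genes and globin genes in each of the 8 libraries, with LMPP in red and MPP in blue, inputs as circles and IP libraries as triangles. Neutrophil, Y-linked and globin reads lie higher in LMPP than in MPP, and immunoglobulin reads lie lower.

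The genes that usually set LMPP apart did not all follow the label. Flt3, the receptor tyrosine kinase used to define these cells, had normalised values of 541.7 and 1036 in LMPP and 1509 and 1756 in MPP. Its libraries did not overlap, as at 8720 of 17165 tested genes, and lay lower in LMPP. The difference missed the threshold of 0.05 (log2 fold change -1.12, SE 0.54, limma adjusted p = 0.21). Dntt, the template-free polymerase that adds bases at antigen receptor joints, had 9071 and 8380 in LMPP and 13960 and 9473 in MPP, with LMPP below MPP but within the error (log2 -0.40, SE 0.50, limma adjusted p = 0.698). Both genes were therefore not higher in the libraries labelled LMPP.

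Il7r, the interleukin 7 receptor chain on which lymphoid progenitors depend, did follow the label. It had 656.9 and 679.1 in LMPP and 252.8 and 192.8 in MPP (log2 1.59, SE 0.43, limma adjusted p = 0.0211), and CLP lay higher still with 1160 and 1711. The call was lost without LMPP replicate 1 (limma adjusted p = 0.0804), LMPP replicate 2 (0.078) or MPP replicate 2 (0.237). Of the other lymphoid genes plotted, Satb1, Notch1, Cd27 and Ccr9 did not pass. Ccr9, a thymus-homing receptor, had 77.11 and 187.1 in LMPP and 196.9 and 233.2 in MPP. Kit, Ly6a, Cd34 and Cd48, which mark early progenitors, were present in all 4 inputs and none passed, as the plot of the marker genes shows.

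**Figure D2:**
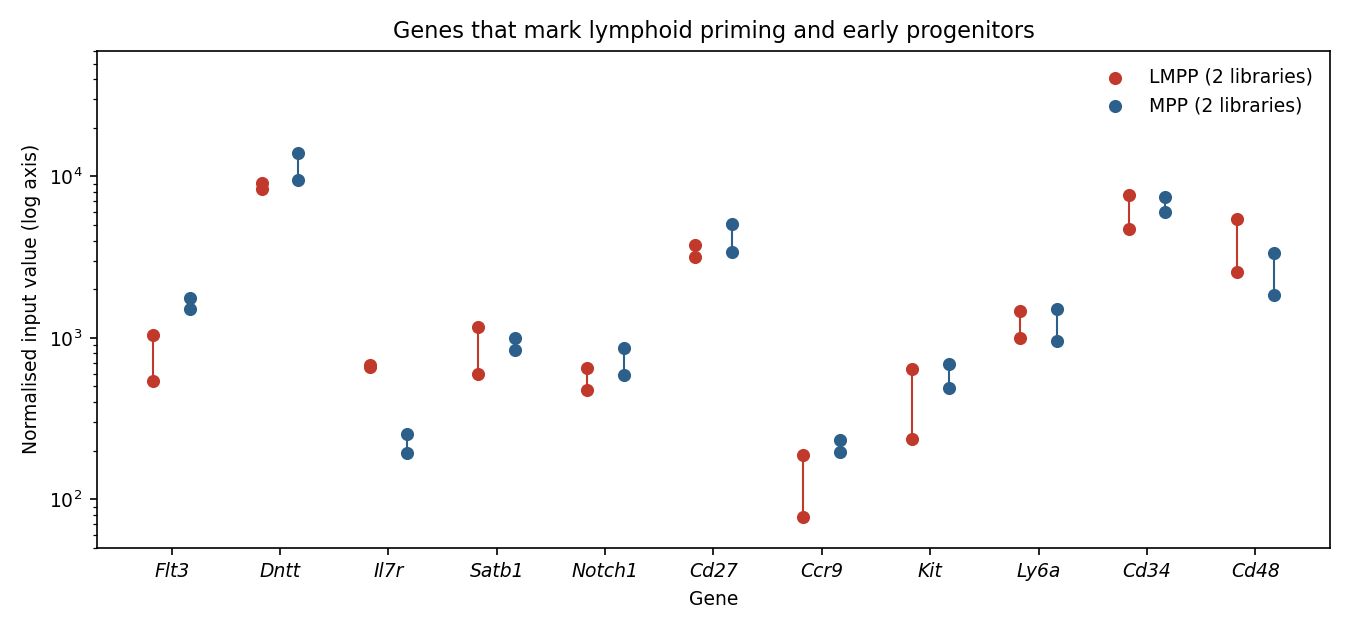
Normalised input values (log axis) of 11 genes that mark lymphoid priming or early progenitors, with 2 LMPP libraries in red left of 2 MPP libraries in blue, and a line joining the libraries of a group. Il7r lies above MPP in both LMPP libraries, while Flt3 and Dntt lie below.

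The promoters of Dntt and Flt3 are shown as the regions of the genes that define the label, and those of S100a8 and S100a9 as those of 2 of the genes that differed most by the naming rule. The sequences run from 250 bases before to 50 bases after the transcript start and come from RefSeq on build GRCm38.p6. Capitals mark 3 motifs searched on both strands. The first is the E-box of E proteins, spelled CACCTG. The Ikaros core is spelled TGGGAA. The GATA site is spelled AGATAA. Dntt lies at chr19:41029025-41029324 on the plus strand, Flt3 at chr5:147400440-147400739 on the minus strand, S100a8 at chr3:90668821-90669120 on the plus strand and S100a9 at chr3:90695672-90695971 on the minus strand.
Dntt: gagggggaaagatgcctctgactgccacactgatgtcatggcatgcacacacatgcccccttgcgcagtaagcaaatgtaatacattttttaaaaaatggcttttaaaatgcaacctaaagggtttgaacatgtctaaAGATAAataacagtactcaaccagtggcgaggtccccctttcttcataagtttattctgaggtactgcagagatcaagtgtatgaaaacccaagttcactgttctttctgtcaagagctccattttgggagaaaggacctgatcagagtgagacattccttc
Flt3: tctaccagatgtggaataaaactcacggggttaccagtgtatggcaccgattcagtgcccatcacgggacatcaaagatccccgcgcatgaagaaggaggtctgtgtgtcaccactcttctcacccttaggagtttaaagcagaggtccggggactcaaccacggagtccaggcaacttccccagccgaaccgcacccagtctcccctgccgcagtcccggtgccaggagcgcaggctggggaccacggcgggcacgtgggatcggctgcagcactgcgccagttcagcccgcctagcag
S100a8: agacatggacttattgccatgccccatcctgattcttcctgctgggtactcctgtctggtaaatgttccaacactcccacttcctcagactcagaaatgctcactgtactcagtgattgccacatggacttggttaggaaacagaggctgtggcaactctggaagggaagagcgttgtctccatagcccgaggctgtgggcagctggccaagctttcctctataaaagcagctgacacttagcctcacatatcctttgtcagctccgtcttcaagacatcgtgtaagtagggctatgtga
S100a9: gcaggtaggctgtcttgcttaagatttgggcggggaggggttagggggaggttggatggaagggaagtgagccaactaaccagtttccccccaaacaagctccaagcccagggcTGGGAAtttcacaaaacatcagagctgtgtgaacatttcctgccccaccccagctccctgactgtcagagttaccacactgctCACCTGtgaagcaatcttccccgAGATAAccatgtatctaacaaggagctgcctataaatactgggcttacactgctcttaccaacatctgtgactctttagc
The Dntt window holds 1 AGATAA, and the S100a9 window holds 1 match of each motif. The Flt3 and S100a8 windows hold none of these letters. Among 32851 promoter windows of this length, 20.2% hold CACCTG, 25.6% hold TGGGAA and 11.2% hold AGATAA. A match describes the letters only, and no binding was measured. Of the 12 genes with the largest increase that were chosen by rule, 9 had a promoter entry, and of the 12 with the largest decrease 0 had one.

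Across the transcriptome, RNA levels differed at 762 genes that were higher and 754 that were lower in LMPP, of 17165 tested (8.83% called; 4.44% higher and 4.39% lower). The test was limma on log2(value + 1) over the 32 inputs of all 16 cell types, with a Benjamini-Hochberg adjusted p under 0.05. The median log2 fold change over all tested genes was -0.03. Rescaling by trimmed means moved that median to -0.19, and the calls to 622 higher and 1111 lower, so the share of higher calls was 50.3% as tested and 35.9% after rescaling. Lists whose medians lie within 0.2 of 0 therefore have no settled direction.

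The counts rest strongly on the spread borrowed from other cell types and on MPP replicate 2. With the 4 LMPP and MPP inputs alone, 12 genes were higher and 19 lower. Without MPP replicate 2, 94 were higher and 91 lower, and 91 and 86 of these were among the genes above. Without LMPP replicate 1, 303 were higher. Without LMPP replicate 2 or MPP replicate 1, 449 and 472 were lower. When one library is left out of a group, the remaining one is assumed to vary as the other cell types do.

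**Figure D3:**
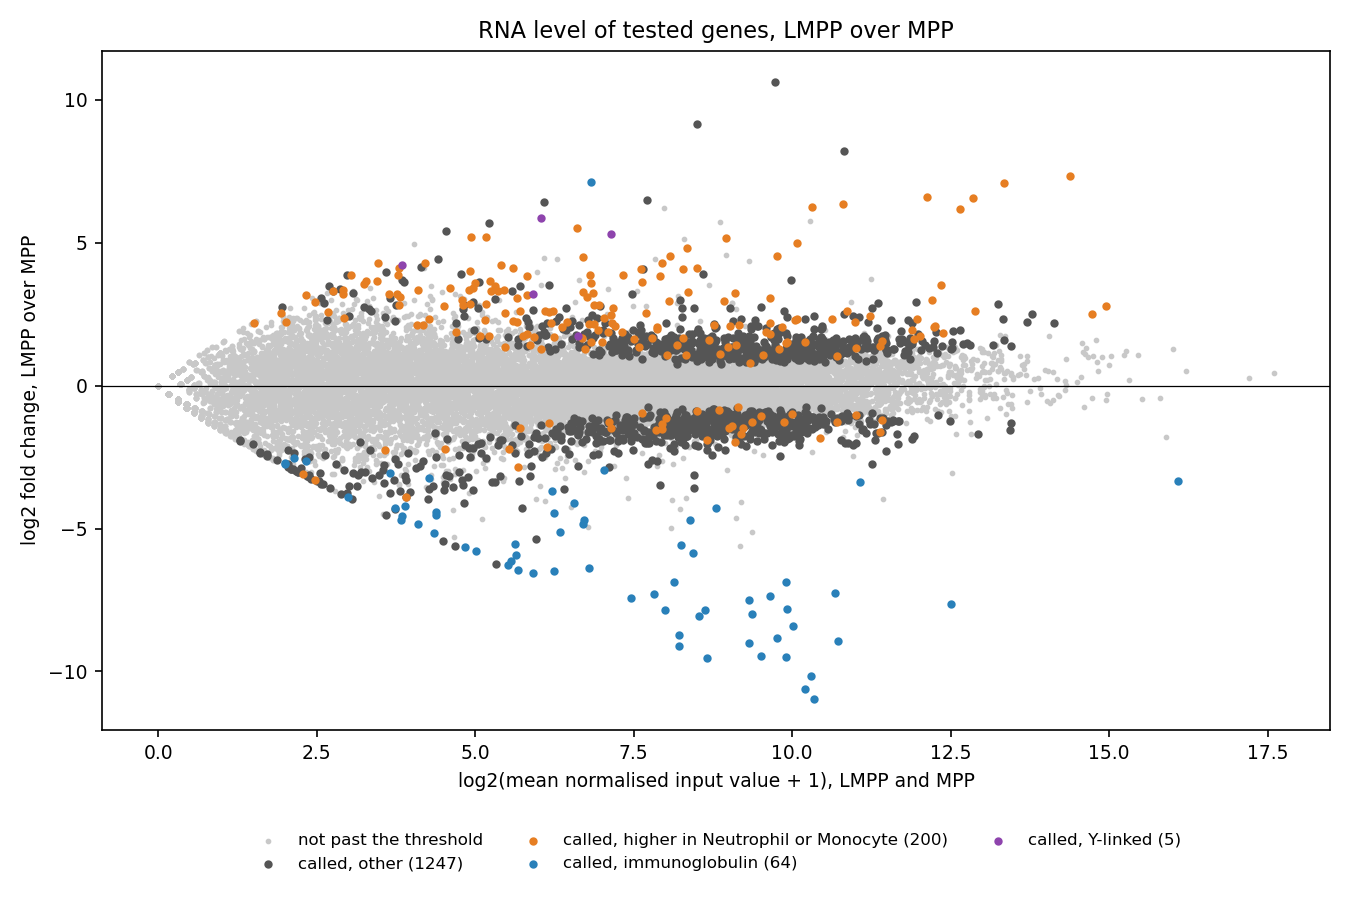
Log2 fold change of RNA level (LMPP over MPP, vertical axis) against the mean level in the 4 inputs (log2 of the normalised value + 1) for 17165 genes, with called genes coloured by class. Called immunoglobulin genes lie mostly far below 0, and genes higher in the libraries labelled Neutrophil or Monocyte lie mostly above.

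Mature myeloid, immunoglobulin and Y-linked genes made up part of the calls. Of the 762 higher genes, 165 (21.7%) were genes at least 4-fold higher in the libraries labelled Neutrophil or Monocyte than in LMPP and MPP, against 14.2% of all tested genes. This class was drawn on the normalised values, whose sums in units of 1000000 were 83.13 and 113.2 in the Monocyte inputs and 20.07 and 21.09 in the Neutrophil inputs, against 12.24 and 8.006 in LMPP and 9.401 and 8.151 in MPP, so it is a wide one. A further 5 were Y-linked and 1 an immunoglobulin gene. Of the 754 lower genes, 63 were immunoglobulin genes (8.36%, against 1.44% of all tested) and 35 were of the Neutrophil or Monocyte class. With these classes left out, an alternative chosen after seeing the data, 591 higher and 656 lower genes remained.

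The neutrophil list had the highest median of the 25 lists. In it 8 of 10 members were higher and 0 lower, with a median log2 fold change of 6.22. S100a8, one chain of the antimicrobial protein calprotectin, had 69660 and 15670 in LMPP and 477.2 and 88.34 in MPP (log2 7.32, SE 0.81, limma adjusted p = 2.02e-05). S100a9, the other chain, had 32720 and 8353 in LMPP and 245.9 and 59.37 in MPP (log2 7.08, SE 0.67). LMPP replicate 1 was the higher one for both genes, and even replicate 2 lay far above either MPP library.

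Retnlg, a resistin-like granule protein, had the smallest adjusted p of the neutrophil list, with 4479 and 2571 in LMPP and 51.44 and 32.3 in MPP (log2 6.34, SE 0.54, limma adjusted p = 1.69e-07). It stayed called with the 4 libraries alone (limma adjusted p = 0.00678), as did Mmp8 and Chil3. Chil3, a chitinase-like protein, Camp, the cathelicidin precursor, Lcn2, which binds bacterial siderophores, Ngp, a granule protein, and Ly6g, the surface antigen of mature neutrophils, had log2 fold changes between 5.53 and 6.60. Ly6g had 295.7 and 85.12 in LMPP, against 3.919 and 1.425 in MPP. Mmp8, the neutrophil collagenase, had 653 and 598.4 in LMPP and 20.58 and 21.85 in MPP, with close replicates in both groups. Leaving out MPP replicate 2 kept 6 of the 10 markers called, and Lcn2 was not (limma adjusted p = 0.0988).

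Across the other stages, S100a8 was low in stem cells and in granulocyte progenitors. It had 278.9 and 226 in short-term stem cells (ST.HSC) and 590.5 and 292.4 in granulocyte and monocyte progenitors (GMP), and 20440 and 5941 in CLP. In the libraries labelled Neutrophil it had 462100 and 505000. In bulk libraries, more cells of a type and more RNA per cell cannot be told apart, and the part of mature neutrophils in these differences was not tested.

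Monocyte genes rose less by list median than neutrophil genes. Together they took 8950 and 3874 RPM in the LMPP inputs, against 1269 and 657.7 in the MPP inputs. Of 11 monocyte markers, 8 were higher and 0 lower (median log2 2.48). F13a1, the A subunit of coagulation factor XIII, had 1902 and 1844 in LMPP and 131.8 and 156.7 in MPP (log2 3.70, SE 0.37, limma adjusted p = 1.88e-06), and stayed called in all 12 alternatives. Its level in LMPP lay near that of GMP, which had 1954 and 2637. Ccr2, the chemokine receptor of inflammatory monocytes, had 593.4 and 458.2 in LMPP and 40.17 and 101.6 in MPP (log2 3.01, SE 0.49), and 95.15 and 153.2 in GMP. Cx3cr1, the fractalkine receptor, had 140.5 and 246.6 in LMPP and 23.02 and 45.6 in MPP. Ms4a6c, Lyz2 (lysozyme), Fcgr1 (a high-affinity IgG receptor), Ly86 and Klf4 were also higher. Of the 8, 4 stayed called without LMPP replicate 1, and 5 without either MPP replicate.

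The called genes of the list of granulocyte and monocyte progenitors all lay higher in LMPP. Of 22 members 8 were higher and 0 lower (median log2 1.34), against 4.44% and 4.39% of all tested genes. The estimate was above 0 at 16 of the 22. Ctsg, the granule protease cathepsin G, had 36250 and 11540 in LMPP and 6506 and 1999 in MPP (log2 2.50, SE 0.74). Ms4a3, a membrane protein of these progenitors, had 4904 and 1786 in LMPP and 921 and 315.8 in MPP (log2 2.45, SE 0.51). Prtn3, Plac8, Igsf6, Clec12a, Ly6c2 and Mgst1 were the other members called. Igsf6, Clec12a, Ly6c2 and Mgst1 had higher normalised values in the libraries labelled Monocyte than in GMP. Mgst1 had 64100 and 97250 there and 2311 and 1533 in GMP. Ctsg, Ms4a3 and Prtn3 went the other way, and Plac8 overlapped. The part of mature myeloid cells in these calls was not tested. Mpo, myeloperoxidase, had 153100 and 43130 in LMPP and 34380 and 32490 in MPP and was not called (limma adjusted p = 0.201). Cebpa and Spi1, transcription factors of the lineage, were not called, with log2 values of -0.04 and -0.30. The calls rested on single libraries: 1 of the 8 remained without LMPP replicate 1, and 1 without MPP replicate 2.

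Early B-lineage genes were split. Of 16 B cell markers, 3 were higher and 1 lower, with a median of 0.31. Vpreb3, a chaperone of the pre-B cell receptor, had 900.9 and 555.2 in LMPP and 49.48 and 43.7 in MPP (log2 3.90, SE 0.80, limma adjusted p = 0.00394). Vpreb1, part of the surrogate light chain, had 1109 and 699.1 in LMPP and 143.5 and 121.1 in MPP (log2 2.73, SE 0.55). Igll1, the other part, had 1315 and 958.9 in LMPP and 225.4 and 228.9 in MPP (log2 2.30, SE 0.71). LMPP and MPP libraries did not overlap at these 3 genes, as at 761 of the 762 higher genes and 8720 of all 17165 tested. CLP had 950.1 and 955.2 for Vpreb3, 944.9 and 1131 for Vpreb1, and 1240 and 1476 for Igll1, close to LMPP in each case, and ST.HSC had at most 9.665.

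The B cell factors were not called. Ebf1 had 163 and 249.7 in LMPP and 99.45 and 203.8 in MPP, so its groups overlapped, and Pax5 had 33.19 and 29.42 against 28.9 and 20.9. None of the 3 higher genes was called without MPP replicate 2 (limma adjusted p = 0.0642 for Vpreb3, 0.0655 for Vpreb1 and 0.245 for Igll1). Igll1 was also lost without any other single library, at 0.0891 to 0.189.

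Among 20 genes of lymphoid priming and recombination, 2 were higher and 2 lower (median -0.38). Beside Il7r, Cd52, a surface glycoprotein of lymphocytes and monocytes, was higher, with 10170 and 5387 in LMPP and 2310 and 1357 in MPP (log2 2.06, SE 0.50). Cd52 also belongs to the class of genes higher in the libraries labelled Neutrophil or Monocyte. Jak3, the kinase of the common gamma chain receptors, had 67.35 and 120.2 in LMPP and 320.9 and 614.1 in MPP (log2 -2.29, SE 0.48, limma adjusted p = 0.0041). Ltb, lymphotoxin beta, had 1324 and 911.3 in LMPP and 2802 and 3735 in MPP (log2 -1.56, SE 0.40). Rag1 and Rag2, the recombinase subunits, were not called, and Rag2 had 119.1 and 237.8 in LMPP and 138.6 and 151.5 in MPP. None of the 4 calls held without MPP replicate 2. Ltb alone held without LMPP replicate 1, and Cd52 and Jak3 held without LMPP replicate 2.

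Of 23 lymphoid transcription factors, 2 were higher and 0 lower (median -0.05). Of all tested genes 8.83% were called, so this count is not read as a trait of the list. Id2, which binds and blocks E proteins, had 1441 and 1045 in LMPP and 443.8 and 282.6 in MPP (log2 1.79, SE 0.48). With 5249 and 8398 in the libraries labelled Monocyte, Id2 also belongs to the class of genes higher in the libraries labelled Neutrophil or Monocyte. Zeb2, a zinc finger repressor, had 757.4 and 965.8 in LMPP and 320.9 and 211.8 in MPP (log2 1.71, SE 0.31, limma adjusted p = 0.00127). Zeb2 lay between MPP and CLP, which had 1131 and 1280. Both were lost without MPP replicate 2, at a limma adjusted p of 0.27 for Id2 and 0.0611 for Zeb2, and Id2 also without LMPP replicate 1 (0.133). Ikzf1, Ikaros, had 743.7 and 788 in LMPP and 802.9 and 726.2 in MPP, with overlapping groups.

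Of 247 tested immunoglobulin genes, 63 were lower and 1 higher in LMPP, and 183 did not pass. The counts were 25 lower of 109 heavy chain variable segments, 27 of 109 kappa variable segments and 7 of 17 constant and other genes. All 12 genes with the largest decrease by the naming rule were of this class. Igkv5-43, a kappa variable segment, had 0 and 0.6259 in LMPP and 2050 and 3135 in MPP. Igkv6-13 had 0.976 and 0 in LMPP and 611.4 and 567.6 in MPP. Ighv5-16 was listed at 0 in both LMPP libraries and had 4127 and 598.4 in MPP, which makes it at least 983-fold lower against a floor of 3 reads per library. Igkv5-39, Igkv1-88 and Igkv12-89, also at 0 in both, were at least 334-, 607- and 247-fold lower. These bounds rest on the mean of both MPP libraries. Against one MPP library alone they were 249 and 1720 for Ighv5-16, 198 and 469 for Igkv5-39, 75.5 and 1140 for Igkv1-88, and 150 and 343 for Igkv12-89. Igkv1-88 lost its call with the 4 inputs alone (limma adjusted p = 0.067).

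Constant regions carried most of the reads. Ighm, the heavy chain of IgM, had 15040 and 10170 in LMPP and 108500 and 143800 in MPP (log2 -3.34, SE 0.79, limma adjusted p = 0.0113). The call was lost without LMPP replicate 2 (limma adjusted p = 0.0639) or MPP replicate 2 (0.135). Ighg2c, an IgG heavy chain made after class switching, had 5.856 and 0 in LMPP and 2020 and 1807 in MPP. Igkc, the kappa constant region, had 54140 and 11940 in LMPP and 81270 and 98310 in MPP and was not called. Igha, the IgA heavy chain, had 24100 and 9489 in LMPP and 10150 and 7751 in MPP, with overlapping groups. Individual segments differed also within a group: Igkv1-88 had 2736 and 181.4 in the MPP libraries. Ighv14-1, the 1 higher member, had 47.83 and 401.8 in LMPP and was listed at 0 in both MPP libraries. Its call was lost without LMPP replicate 2 (limma adjusted p = 0.117), MPP replicate 1 (0.0593) or MPP replicate 2 (0.129). Variable segments share long stretches of sequence, so reads may be divided among them. Lower members numbered 40 without LMPP replicate 2 and 35 without MPP replicate 2. Class-switched constant genes are products of mature B and plasma cells, and the part of such cells in these values was not tested.

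Of 10 tested Y-linked genes, 5 were higher in LMPP. Ddx3y, an RNA helicase, had 102.5 and 154 in LMPP and 0.9798 and 1.425 in MPP (log2 5.85, SE 0.55, limma adjusted p = 8.38e-07). Eif2s3y, a translation factor subunit, had 234.2 and 314.8 against 4.899 and 7.124. CLP lay with LMPP, at 223.1 and 142.6 for Ddx3y, and ST.HSC with MPP, at 1.035 and 0.9205. No library of either label lay on the other side at these genes. The sex of the animals is not given in the labels used here, and its part in the other differences was not tested.

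A pair of ribosomal protein pseudogenes headed the rule. Rps13-ps2 had 2309 and 1100 in LMPP and was listed at 0 in both MPP libraries, at least 1178-fold higher against the floor of 3 reads. Rpl31-ps8 had 938 and 508.2 in LMPP and 0 and 0.475 in MPP. Reads of such copies cannot be told apart from those of their near-identical parent genes, and Rps13-ps2 was found in the MPP IP libraries at 239.4 and 303.3 scaled counts. Their levels are uncertain for that reason, and Rpl31-ps8 lost its call when any single input was left out (limma adjusted p = 0.0774 to 0.196).

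Outside these classes, the genes with the largest differences were chosen after their values were seen, under the same rule. Lgals1, galectin-1, had 8576 and 5445 in LMPP and 836.7 and 939.9 in MPP (log2 2.94, SE 0.36, limma adjusted p = 3e-05), while CLP had 27850 and 28660. Esco2, which acetylates cohesin in S phase, had 1555 and 968.9 in LMPP and 236.6 and 140.6 in MPP (log2 2.74, SE 0.37). Dynll1, a dynein light chain, had 21640 and 12480 in LMPP and 3399 and 1485 in MPP (log2 2.87, SE 0.48). These 3 calls held when any single input was left out. Hist1h4d and Hist1h2ab, replication-dependent histone genes with near-identical copies, were also higher, as were Clec4b1, a C-type lectin, Dlg2, Tctex1d1 and Dmkn. Of these 6, Dlg2 alone kept its call with each single input left out.

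Among the lower genes of this kind, Mn1, a transcriptional coregulator, had 762.3 and 496.3 in LMPP and 3342 and 5184 in MPP (log2 -2.76, SE 0.58, limma adjusted p = 0.00494). ST.HSC had 3431 and 5860 and CLP 623.3 and 668.2, so the LMPP level lay beside CLP and the MPP level beside ST.HSC. Cavin1, a coat protein of caveolae, had 3.904 and 28.79 in LMPP and 111.7 and 191.4 in MPP, and Ncs1, a calcium sensor, had 32.21 and 67.6 against 358.1 and 932.3. Aldoc, aldolase C, had 33.19 and 31.3 in LMPP and 283.2 and 204.2 in MPP (log2 -2.86, SE 0.66). Gbx2, Large2, Tmem121, Hgfac, Pld6, Pcsk4 and Sms-ps were also lower. None of these 11 genes was called without MPP replicate 2, when the limma adjusted p was 0.0667 for Aldoc and 0.108 for Mn1. Cavin1 (0.157) and Ncs1 (0.121) were also lost without LMPP replicate 1, and Aldoc without MPP replicate 1 (0.058).

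The stem cell list held a smaller share of calls than all tested genes (8.83%), while the megakaryocyte and erythroid lists did not. Of 35 stem cell regulators, 0 were higher and 1 lower (limma; 1 higher and 2 lower at an unadjusted p under 0.05, and 1 higher and 1 lower by edgeR), with a median of -0.24. The lower gene was Lmo2, a bridging factor of the haematopoietic transcription complex. It had 2042 and 1624 in LMPP and 4620 and 4048 in MPP (log2 -1.25, SE 0.23, limma adjusted p = 0.00183), and kept its call when any single input was left out, at 0.00411 to 0.0218. Along the stages, Lmo2 had 8433 and 10710 in ST.HSC and 225.7 and 241.3 in CLP. Meis1 and Hlf, stem cell transcription factors, were not called, with log2 values of -0.97 and -0.70.

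Of 18 megakaryocyte genes, 1 was higher and 2 lower with limma, against 1 and 4 with edgeR on the recovered reads. Nfe2, a factor of platelet formation, had 1426 and 1058 in LMPP and 4186 and 3616 in MPP (log2 -1.66, SE 0.37, limma adjusted p = 0.00625). F2r, a thrombin receptor, had 12.69 and 4.381 against 34.29 and 65.07. Pf4, platelet factor 4, went the other way, with 707.6 and 362.4 in LMPP and 86.71 and 68.39 in MPP (log2 2.70, SE 0.75). Of 20 erythroid genes, 2 were higher and 0 lower, and both were adult globins. Hba-a1 had 487 and 436.3 in LMPP and 100.4 and 33.25 in MPP, and Hbb-bs had 265.5 and 197.2 against 77.4 and 20.42. Gata1 was not called. Globin transcripts abound in red cells, and the part of such cells was not tested. None of these 5 genes was called without MPP replicate 2. Pf4 and Hbb-bs were also lost without LMPP replicate 1, F2r, Nfe2 and Hbb-bs without LMPP replicate 2, and Pf4 without MPP replicate 1.

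List medians of growth genes lay on opposite sides of 0 by pathway, and that of oxidative phosphorylation moved near 0 without LMPP replicate 1. Of 25 genes of Myc and ribosome biogenesis, 6 were lower and 0 higher (limma; 1 higher at an unadjusted p under 0.05 and 0 by edgeR), with a median of -0.60 and 3 of 25 members above 0. Myc itself had 1090 and 1338 in LMPP and 2766 and 5323 in MPP (log2 -1.67, SE 0.42, limma adjusted p = 0.0138), and 309.7 and 243.1 in CLP. Cad, the first enzyme of pyrimidine synthesis, had 103.5 and 159.6 in LMPP and 423.8 and 485.9 in MPP (log2 -1.81, SE 0.49). Polr1b, a subunit of RNA polymerase I, Nle1, Rrp9 and Mybbp1a, which act in ribosome assembly, were the others. Ncl and Npm1, abundant nucleolar proteins, were not called. Of the 6, 0 stayed called without MPP replicate 2, 2 without LMPP replicate 1 and 3 without MPP replicate 1.

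Of 27 genes of oxidative phosphorylation, 8 were higher and 1 lower (median 0.47). Ndufa4 had 18020 and 9128 in LMPP and 5468 and 4104 in MPP (log2 1.44, SE 0.42). Cox5a, a subunit of cytochrome c oxidase, had 13920 and 5238 against 2943 and 1739 (log2 1.92, SE 0.47). Cycs, cytochrome c, Ndufa1, Ndufa2, Ndufb3, Cox6c and Cox7a2 were the other higher members. Ndufs1, the largest subunit of complex I, was lower, with 251.8 and 341.1 in LMPP and 501.2 and 764.2 in MPP (log2 -1.08, SE 0.34). None of the 9 was called without LMPP replicate 1 or without MPP replicate 2, and 5 of the 8 higher ones stayed called without MPP replicate 1. Transcripts of the mitochondrial genome took 1.25% and 2.37% of the LMPP inputs and 1.08% and 0.508% of the MPP inputs, and 4.97% and 7.94% of the IP in LMPP against 4.26% and 3.41% in MPP, without overlap. The part of this share in the differences was not tested.

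Of 30 cell cycle genes 2 were higher and 2 lower (median -0.16), against 4.44% and 4.39% of all tested genes, and 26 did not pass. Birc5, survivin, had 6773 and 3597 in LMPP and 1967 and 1292 in MPP (log2 1.63, SE 0.33), and Ccnb2, a mitotic cyclin, had 5271 and 4378 against 3158 and 1985. Cdk4, the kinase of G1, had 3901 and 2820 in LMPP and 7072 and 6341 in MPP (log2 -1.01, SE 0.28), and Mcm7, of the replicative helicase, had 1491 and 1389 against 3111 and 3460. Of the 4 calls, 1 remained without LMPP replicate 1 (Cdk4), 1 without LMPP replicate 2 (Birc5), 2 without MPP replicate 1 (Birc5 and Ccnb2) and 0 without MPP replicate 2. The 9 tested cell cycle inhibitors included 0 called genes (1 higher and 0 lower at an unadjusted p under 0.05 with limma, 0 by edgeR).

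**Figure D4:**
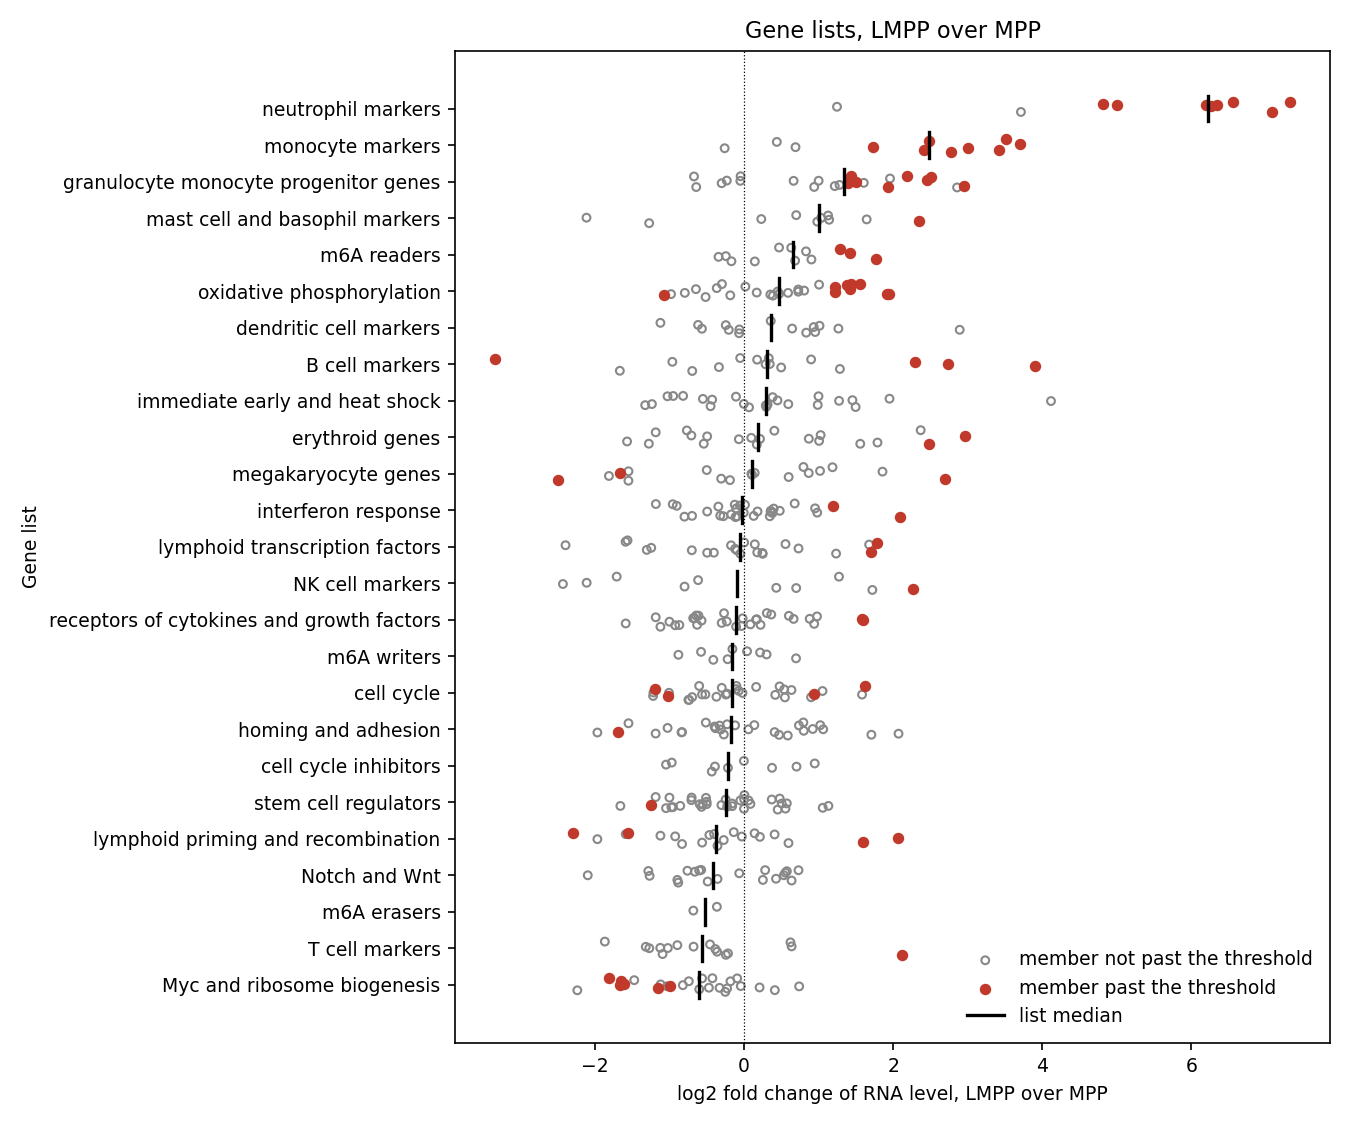
Log2 fold change of RNA level (LMPP over MPP) of each tested member of 25 gene lists, ordered by list median (black bar), with members past the threshold filled in red. The neutrophil, monocyte and granulocyte monocyte progenitor lists lie furthest right, and the Myc and ribosome biogenesis list furthest left.

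Among the genes of the m6A machinery, some readers were higher in LMPP. Of 9 writers 0 were called (limma; 0 at an unadjusted p under 0.05 and 0 by edgeR), and the same held for both erasers. Mettl3, the catalytic subunit, had 280.1 and 735.4 in LMPP and 496.3 and 562.3 in MPP, and Mettl14 had 125.9 and 160.2 against 139.6 and 179.1. Their groups overlapped. Fto had 263.5 and 557.7 in LMPP and 434 and 560 in MPP. Of 12 readers, 3 were higher and 0 lower (median 0.66), against 4.44% and 4.39% of all tested genes. Ythdc2, a helicase with a YTH domain, had 270.4 and 152.7 in LMPP and 68.09 and 83.12 in MPP (log2 1.42, SE 0.39). Igf2bp3 had 103.5 and 101.4 against 46.05 and 18.52, and Fmr1 had 246.9 and 192.2 against 89.16 and 87.39. None of the 3 was called without LMPP replicate 1 or without MPP replicate 2, and Igf2bp3 alone was called without MPP replicate 1.

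The remaining lists held few calls, as did all tested genes (8.83%), so these counts are not read as a trait of the lists. Of 16 T cell markers, Thy1 alone was called, with 749.6 and 651.6 in LMPP and 209.7 and 122.5 in MPP (log2 2.12, SE 0.44). Of 10 natural killer cell markers it was Klrd1, with 135.7 and 118.3 against 32.33 and 19.95, and of 10 mast cell and basophil markers Mcpt8, with 10640 and 2944 against 1663 and 730.5. Thy1 and Mcpt8 also belong to the class of genes higher in the libraries labelled Neutrophil or Monocyte. Dendritic cell markers had 0 of 15 called (limma; 1 higher and 1 lower at an unadjusted p under 0.05, and 1 higher by edgeR).

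Of 31 cytokine and growth factor receptors, Il7r and Tgfbr1 were higher, and Tgfbr1 had 253.8 and 271.6 in LMPP and 90.63 and 84.07 in MPP. Of 28 homing and adhesion genes, Cd81, a tetraspanin, was lower, with 1673 and 1364 against 4314 and 5519 (log2 -1.69, SE 0.31). Of 30 interferon response genes, Ifi27l2a was higher, with 870.6 and 818.7 against 184.7 and 208.5 (log2 2.10, SE 0.32), as was Trim30a, with 1065 and 1038 against 515.9 and 409.4. No gene of the Notch and Wnt list was called among 20 tested (limma; 0 at an unadjusted p under 0.05 and 0 by edgeR), nor of 24 immediate early and heat shock genes (4 higher and 1 lower at an unadjusted p under 0.05 with limma, and 1 higher by edgeR). Thy1, Klrd1, Mcpt8, Cd81 and Trim30a lost their calls without MPP replicate 2, and Tgfbr1 without any single input. Klrd1 was also lost without either LMPP replicate, and Mcpt8 without LMPP replicate 1 or MPP replicate 1. Ifi27l2a kept its call with any single input left out and lost it with the 4 inputs alone (limma adjusted p = 0.0808). This gene also belongs to the Neutrophil or Monocyte class.

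The IP libraries hold both the RNA level of a transcript and its recovery by the antibody. Their whole-number counts were tested with edgeR's quasi-likelihood test over the 32 IP libraries. In LMPP 324 genes were higher and 214 lower, of 19686 tested (2.73% called; 1.65% higher and 1.09% lower). Of the 762 genes higher in the LMPP input, 761 were tested in the IP and 71.6% of those had a higher estimate there, against 38.9% of all genes tested in the IP. Of the 762, 97 were called in the IP, which is 12.7% of the input list and 29.9% of the IP list. Of the 754 lower genes, 743 were tested and 73.4% of those had a lower estimate, against 56.9% of all genes tested. Of the 754, 43 were called, 5.70% of the input list and 20.1% of the IP list, and 15 of the 43 lay outside the immunoglobulin, Y-linked and Neutrophil or Monocyte classes. All 10 neutrophil markers were higher in the IP, and S100a8 had 168500 and 54860 scaled IP counts in LMPP and 3094 and 1369 in MPP. Ddx3y had 723.9 and 2822 against 6.083 and 6.769.

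Single libraries decided the number of IP calls. It was 60 higher and 16 lower without IP LMPP replicate 2, and 1066 higher and 2135 lower without IP LMPP replicate 1, when replicate 2 alone stood for LMPP. Without IP MPP replicate 1 it was 16 and 23, and without IP MPP replicate 2 it was 29 and 27. With the 4 IP libraries alone, edgeR called 0 higher and 1 lower gene (1105 higher and 843 lower at an unadjusted p under 0.05), and DESeq2 over all 32 called 952 and 858.

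Enrichment by the m6A antibody was compared as log2 IP minus log2 input in LMPP, minus the same difference in MPP. Each table was scaled on its own, so only differences between cell types are read and never a level. By limma over 64 libraries, 102 genes were more enriched and 228 less enriched in LMPP, of 16753 tested (1.97% called; 0.609% higher and 1.36% lower). The median over all tested genes was -0.30. Without trimmed-mean factors it was -0.61, with 44 genes higher and 491 lower, so 30.9% of calls were higher as tested and 8.22% without the factors. The median was 0.03 for genes that averaged at least 50, and 0.02 without IP LMPP replicate 2, so the side of 0 on which it lay was not settled. With the 8 libraries alone, limma called 0 higher and 2 lower genes, with 850 and 1167 at an unadjusted p under 0.05. The input libraries enter this difference and the expression difference with opposite signs, so the values are set side by side and no overlap is read.

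The number of enrichment calls also moved with single libraries. It was 6 higher and 25 lower without IP LMPP replicate 2, and 902 higher and 2403 lower without IP LMPP replicate 1. Leaving out IP MPP replicate 1 or 2 gave 9 and 37, or 19 and 58. Leaving out input LMPP replicate 1, input MPP replicate 1 or input MPP replicate 2 gave 26 and 51, 64 and 122, or 4 and 19. None of the 20 genes named by rule stayed called in all 15 alternatives.

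Ppan, a ribosome biogenesis factor, was more enriched in LMPP. Its input was alike in both groups, with scaled values of 592.6 and 1111 in LMPP and 1093 and 971.1 in MPP. Its IP was not, with 4377 and 6833 in LMPP and 518.7 and 773.7 in MPP. The log2 difference of IP minus input was 2.88 and 2.62 in LMPP and -1.07 and -0.33 in MPP (log2 difference 3.45, SE 0.48, limma adjusted p = 4.01e-05). It held when any single library was left out, at a limma adjusted p = 1.53e-06 to 0.00304, and was lost with the 8 libraries alone (0.278).

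Nop9, another ribosome biogenesis factor, was more enriched as well, with IP minus input of 1.58 and 2.71 in LMPP and -0.73 and -1.32 in MPP (log2 difference 3.17, SE 0.62, limma adjusted p = 0.00568). In its case the input was lower in LMPP, at 269.8 and 243.3 scaled against 616.5 and 846.3. It was lost without IP LMPP replicate 2 (0.0851) or input MPP replicate 2 (0.0629). Rab35, a small GTPase of endosomal recycling, Zfp598, a ubiquitin ligase that senses collided ribosomes, Aacs, which activates acetoacetate, Wrnip1, a helicase partner, Iba57, of iron-sulfur cluster assembly, and Cerk, ceramide kinase, had differences between 3.00 and 3.36. The naming rule required IP minus input values that did not overlap between the groups, as at 8045 of all 16753 tested genes. At these 6 genes LMPP lay higher. The inputs of these 6 lay lower in LMPP, with log2 fold changes of -2.38 for Rab35, -2.37 for Aacs, -1.94 for Wrnip1 and -1.30 for Iba57, all called by limma, and of -1.63 for Cerk and -1.31 for Zfp598, which were not. Their IP counts were not called (edgeR), and Rab35 differed there by 0.58. Each of the 6 was lost without IP MPP replicate 1, IP MPP replicate 2 or input MPP replicate 2. Without input LMPP replicate 1 or IP LMPP replicate 2, Rab35 alone kept its call. With the 8 libraries alone all 6 were lost (limma adjusted p = 0.278 to 0.37). With same-numbered IP and input libraries paired, Iba57 (limma adjusted p = 0.0549) and Cerk (0.0911) were lost.

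Prnp, the prion protein, and Zc3h10, a zinc finger protein, rested on the second IP library of LMPP. Prnp had IP minus input of 0.81 and 6.504 in LMPP and -0.33 and -0.65 in MPP (log2 difference 4.15, SE 1.07), and lost its call without that library (limma adjusted p = 0.368). Zc3h10 had 0.94 and 3.94 against -0.41 and -0.48, and was lost likewise (0.453). With same-numbered IP and input libraries paired, both were lost as well (limma adjusted p = 0.0733 for Prnp and 0.0641 for Zc3h10).

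Many of the less enriched genes were scarcely seen in the LMPP IP. Of the 228, 36 had 0 counts in both IP libraries of LMPP and a further 34 had 0 in the second one alone. The share of all tested genes with 0 counts was not taken, so these counts are not read as a trait of the 228. At most 3 counts were found in IP LMPP replicate 2 for 39.9% of the 228, and for 28.6% of all tested genes, while IP MPP replicate 1 had such counts at 6.23% of tested genes. Tigd2, a transposase-derived gene, had 428 and 1.033 scaled IP counts in LMPP and 921.8 and 945 in MPP, and Polr3a, the largest subunit of RNA polymerase III, had 274 and 0 against 427.5 and 441.4. Both lost their calls without that library (limma adjusted p = 0.123 and 0.426).

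Oaz1-ps, a pseudogene of an ornithine decarboxylase antizyme, was listed at 0 in both LMPP IP libraries and had 356.7 and 554.4 in MPP, while its scaled input was 586.3 and 394.7 in LMPP and 1204 and 806 in MPP. It kept its call when any single library was left out and was lost with the 8 libraries alone (limma adjusted p = 0.0937). Rpl15-ps3 was listed at 0 in both LMPP IP libraries against 4050 and 8034 in MPP, with an input of 1211 and 1997 in LMPP and 2254 and 1983 in MPP. Fam177a was at 0 and 0 against 280.9 and 295.8, and Ighv1-69 at 0 and 0 against 209.6 and 264.7. The fitted size of such differences depends on the pseudocount and is not given. Rps13-ps2 differed through its input, as described above. Llph-ps2, Ighv1-62-1 and Slc24a5 were the other genes of the rule. Apart from Fam177a, Tigd2, Polr3a and Slc24a5, the 10 least enriched genes by the rule are pseudogenes or immunoglobulin segments, whose reads can pass between near-identical copies.

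**Figure D5:**
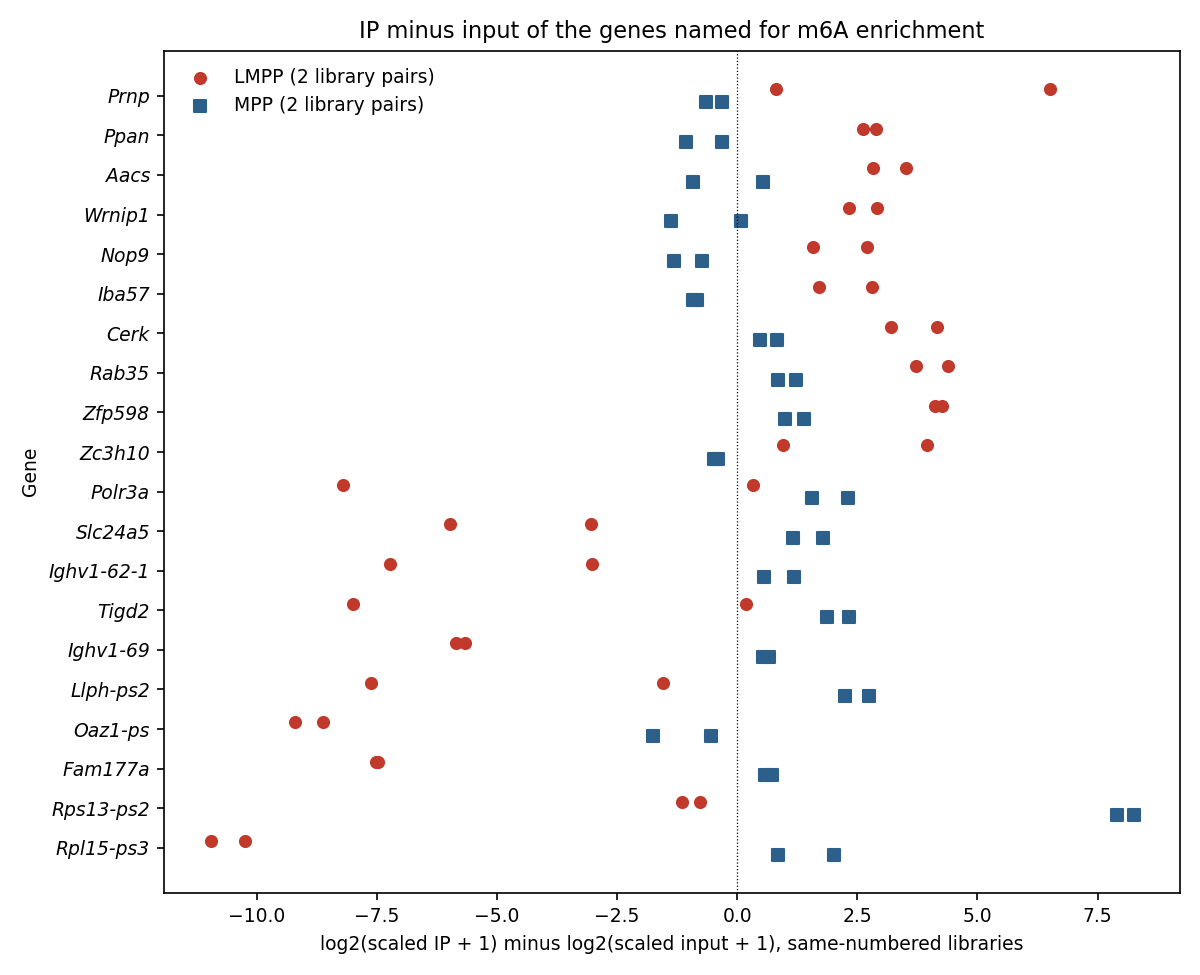
Log2 of scaled IP minus log2 of scaled input (pseudocount 1, same-numbered libraries) for the 20 genes named for m6A enrichment, with 2 LMPP pairs as red circles above 2 MPP pairs as blue squares. Ppan has close pairs on either side, while Prnp, Zc3h10, Tigd2 and Polr3a have LMPP pairs that lie far apart.

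Within the gene lists, enrichment was called at 6 of 445 tested members (1.35%, against 1.97% of all tested genes). Thy1, a GPI-anchored glycoprotein, was less enriched (log2 difference -3.50, limma adjusted p = 0.00297), as was Birc5 (-2.59, 0.0345), and both were higher in the LMPP input. More enriched were Ppan, Mcm7 (1.66, 0.0326), Ndufs1 (1.65, 0.0485), both lower in the LMPP input, and Il10rb, a chain of the interleukin 10 receptor (1.84, 0.0327), whose input was not called. The 25 genes of Myc and ribosome biogenesis had a median of 0.78, against -0.30 over all tested genes, and Ppan was the 1 called among them. Without IP LMPP replicate 2 the medians were 0.85 and 0.02. The input of this list, whose median difference was -0.60, enters with the opposite sign. None of the neutrophil markers was called for enrichment (limma; 0 at an unadjusted p under 0.05 and 0 by edgeR), with a median of -0.47. Nor was any lymphoid priming gene (0 higher and 1 lower at an unadjusted p under 0.05, and 0 by edgeR). Flt3 differed by 0.88 (limma adjusted p = 0.643), Dntt by 0.85 (0.673) and Il7r by -0.76 (0.66).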

How the data were processed

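RNA of sorted mouse blood cells was sequenced before (input) and after pull-down with an anti-m6A antibody. Per the submitters' processing notes, kallisto, fastp, Trimmomatic and build GRCm38 were used, in roles not given. The authors deposited the input as normalised signal per gene and the IP as whole-number counts per gene (36102 genes in each). Input values were whole multiples of a step in each library (100% within 0.1 of a whole number), from which read totals were recovered. Expression was tested with limma 3.58.1 on log2(value + 1), with trend and robust moderation, for genes at 10 or more in at least 2 of the 32 inputs. IP counts were tested with edgeR 4.0.16 (trimmed mean of M values, quasi-likelihood), and enrichment with limma on both tables, each scaled on its own. DESeq2 1.42.0 was an alternative. R was 4.3.3. Adjustment was Benjamini-Hochberg over all genes tested. The members and the 25 gene lists were chosen with earlier results of these data known. Named genes were the 12 highest and 12 lowest called genes for expression (10 and 10 for enrichment) that averaged 50 or more and whose groups did not overlap, without Gm and Rik models, and list members. The pipeline was tested on simulated data.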

Additional observations from a re-analysis of the deposited data

How the results depend on the processing

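Expression calls over the 32 inputs (762 higher, 754 lower) were 12 higher and 19 lower with the 4 inputs alone, and leaving out single inputs gave 94 to 743 higher and 91 to 587 lower. IP calls (324 higher, 214 lower) were 952 and 858 with DESeq2, 0 and 1 with the 4 IP libraries alone, and 16 to 1066 higher and 16 to 2135 lower with single IP libraries left out. Enrichment calls (102 higher, 228 lower) were 181 higher with a pseudocount of 10, 152 lower with edgeR's interaction on recovered reads, 44 and 491 without trimmed-mean factors, and 0 and 2 with the 8 libraries alone. Leaving out single libraries gave 4 to 902 higher and 19 to 2403 lower. The cause of these shifts was not tested. Kit, not called for expression, changed direction without input LMPP replicate 1 (log2 0.15) and reached -1.28 without LMPP replicate 2. Of 108 called genes followed for expression, 15 kept their call in every alternative run, and of 20 for enrichment 0 did. The other counts over all genes, among them those at another pseudocount, filter or moderation for expression, moved by less than 1.5 times.

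Replicate numbers pair LMPP with MPP only by number. The correlation of their deviations was 0.26 between the inputs and 0.00118 between the IP libraries, and between IP and input 0.0649 in LMPP and 0.243 in MPP. With the number as a replicate block, expression had 802 higher and 786 lower genes, and IP counts 328 and 215. For enrichment, each IP library was paired with its same-numbered input and the differences were tested, which gave 54 and 171. With IP and input numbers crossed in these pairs, chosen after seeing the data, enrichment had 26 and 97.

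Limits are 2 libraries a group and a second LMPP IP library with fewer genes detected.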
